A study of Mus musculus with 36 samples.

Results

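Coenzyme A is the acyl carrier of fatty acid breakdown and synthesis, and 10 genes that make it, recycle its precursor or degrade it were followed in mouse liver: the pantetheinases Vnn1 and Vnn3, the pantothenate kinases Pank1, Pank2 and Pank3, the later synthesis enzymes Ppcs, Ppcdc and Coasy, and the hydrolases Nudt7 and Nudt19. Their probes were found as the non-control probes whose gene name in the scanner files equals one of these symbols, which gave 16 of 56605 probes and 10 of 37325 genes. The symbols were chosen by function, with the levels and fold changes of these same 36 arrays already known, so their values are given as a description of these livers. All 10 genes passed the filter on dim probes, and all 16 probes were well above background on all 36 arrays.

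Cells make coenzyme A from pantothenate, vitamin B5. Pantothenate kinases phosphorylate it in the rate-controlling step, Ppcs joins the product to cysteine, Ppcdc removes a carboxyl group, and the bifunctional Coasy completes the molecule. Vanins are extracellular or membrane-anchored enzymes that split pantetheine into pantothenate and cysteamine, and Nudt7 and Nudt19 are peroxisomal hydrolases that cleave coenzyme A. In liver, coenzyme A carries fatty acids into mitochondrial and peroxisomal oxidation.

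Livers of male C57Bl/6J mice with free access to a standard diet, apart from the fast, were measured on 36 arrays, 6 in each of 6 groups. Mice labelled AAKO lack ATGL (encoded by Pnpla2), the lipase that starts triglyceride breakdown, in white adipose tissue, and mice labelled CTRL are their controls. The label text used here names neither the promoter that drives the deletion nor the age. Both genotypes were studied fed, after a 24 h fast, or fed and gavaged with CL316243, which activates the beta 3 adrenergic receptor of fat cells, at 3 mg/kg in 0.5% carboxymethyl cellulose. Gavage took place at ZT10 (hours after lights on) and tissue collection in every group at ZT16. The fed groups belong to experiment 2 and the others to experiment 1, so a condition and an experiment cannot be told apart in comparisons with fed mice. A gavage is stated for the CL316243 groups only, so gavage and agonist cannot be told apart either. A rise, fall or shift with the fast or CL316243 is therefore a difference between these groups, whose cause was not tested. The labels do not say outright that each array holds a separate mouse, so the p-values measure the spread between these samples, which may in part be technical.

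Levels are log2 of the Agilent processed signal over each array's 75th percentile, so 0 is the 75th percentile of that array's probes and a step of 1 is a doubling. Between 58.5% and 65.7% of probes were well above background per array. Hepatocyte markers (Alb, Ttr, Apoa1, Apoc3 and Serpina1c) had a mean level of 9.07 to 9.21 in CTRL fasted arrays and 8.79 to 8.95 in AAKO fasted arrays, and 4 of the 5 were called lower in AAKO. Neutrophil markers spanned -3.44 to 1.03 and -1.51 to 1.64 in those groups, with 3 of 5 called higher in AAKO. Ly6g went the other way, with means of -0.96 in CTRL fasted and -1.23 in AAKO fasted livers, and was not called. Of these 5, Ngp was well above background on 6 AAKO fasted arrays, 2 CTRL fasted arrays and at most 3 of any other group. Ngp passed the filter on dim probes only through AAKO fasted livers, which limits its comparisons with that group. Between genotypes, no Kupffer cell marker passed the limma test in any condition (0 of 15 tests had an unadjusted p below 0.05). All 5 had a positive log2 fold change of AAKO over CTRL in each condition. It was 0.38 to 0.47 fed, 0.061 to 0.62 fasted and 0.12 to 0.46 after CL316243. Among sinusoidal endothelium markers 2 of 5 were called higher in AAKO fasted and in AAKO CL316243 livers. In AAKO fasted livers 2 of 5 stellate markers were called higher and 2 of 5 cholangiocyte markers lower. The mean level of 5 adipocyte markers was -4.81 to -2.98 in CTRL fasted and -4.53 to -4.30 in AAKO fasted arrays, with Lep the brightest at group means of -1.16 and -0.98. Of the 5, 1 was called higher (Plin1) and 1 lower (Adipoq) in AAKO fasted livers, and 2 of 3 pancreas acinar markers were called lower there. Adipoq was well above background on 6 CTRL fasted arrays, 3 AAKO fasted arrays and at most 4 of any other group. Adipoq passed the filter on dim probes only through CTRL fasted livers, which limits its call as lower against them. Of all tested genes, 21.3% were called higher and 28% lower in AAKO than CTRL fasted livers, and 13.4% and 11.3% after CL316243. Markers also moved between conditions. After CL316243 against fed, 4 of 5 Kupffer cell and 4 of 5 stellate markers were called lower in both genotypes, and 4 (CTRL) and 2 (AAKO) of 5 endothelium markers. Of all genes, 12.8% (CTRL) and 15.7% (AAKO) were called lower there. In fasted against fed AAKO livers, 4 of 5 hepatocyte markers were called lower, 3 of 5 neutrophil markers higher and 3 of 5 Kupffer cell markers lower. In that comparison 27.8% of all genes were called higher and 35.7% lower. In CTRL 2 of 5 Kupffer cell markers were called lower with the fast, and none of the neutrophil markers passed (0 of 5 at an unadjusted p below 0.05). With the fast in CTRL, 20.9% of all genes were called higher and 22.4% lower. The part of these markers in the genotype and condition differences described here was not tested, and in whole liver fewer cells of a type and less RNA per cell cannot be told apart. On the first principal component, which held 41.9% of the variance, AAKO fasted arrays lay at 102.8 to 110.8. CTRL fasted replicate 2 lay at 81.3, nearer to them than to the other CTRL fasted arrays, which had a median of 26.6. Without it, the 34 reported differences of the 10 genes that use the CTRL fasted group kept their call, and the largest change in one was 0.0402.

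What was measured for each gene is the RNA that binds a 60-base probe. The first 30 bases of the probes of the genes with the largest differences are shown here, 5′ to 3′ as the scanner files give them, because every value of these genes rests on them.
Vnn1 probe: ctgtttgtcaacagtggactcgggtgtaag
Vnn3 probe: tgctaagtgggagtcaacttgccctggaaa
Pank1 probe: ggtcgagatatcagttagaaataatggtct
Nudt7 probe 1, used for the gene: agatccttgcctgacttcctgttgctgctt
Nudt7 probe 2: aaagttgtatttgatgttcacggtccgctc
Nudt7 probe 3: tggccttcacgttctatgagagaccaccaa
Per the scanner files, on assembly mm9, the Vnn1 probe lies at chr10:23624524-23624583 and the Vnn3 probe at chr10:23587033-23589353, both on the + strand. The second span is 2321 bases long for a probe of 60, and 35.2 kb separate it from the Vnn1 probe. The Pank1 probe lies at chr19:34885801-34885860 on the - strand, and the Nudt7 probes lie at chr8:116676034-116676093, chr8:116660355-116671817 and chr8:116678583-116678639 on the + strand. Exon and untranslated region of a probe were not analysed here. The Vnn1 and Vnn3 probes share no run longer than 6 bases, and the Pank1, Pank2 and Pank3 probes none longer than 6.

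Vnn1, the pantetheinase that returns pantothenate to the synthesis pathway, had the largest genotype difference of the 10 genes in every condition. In fasted mice the Vnn1 level was 1.75 to 3.41 (median 2.82) in the 6 CTRL livers and -2.48 to -1.53 (median -2.06) in the 6 AAKO livers, with no overlap. AAKO was 26.4-fold lower (log2 fold change -4.72, SE 0.24, adjusted p 8.91e-16, limma with Benjamini-Hochberg adjustment over 24250 genes). After CL316243 the levels were 0.88 to 1.86 (median 1.32) in CTRL and -1.47 to -0.66 (median -1.05) in AAKO, again apart, and AAKO was 5.55-fold lower (log2 fold change -2.47, SE 0.24, adjusted p 6.58e-09, limma). In fed mice they were -0.023 to 0.75 (median 0.32) in CTRL and -2.10 to -0.41 (median -0.70) in AAKO. The lowest CTRL fed liver stood above the highest AAKO fed liver, and the difference was -1.35 (SE 0.24, limma adjusted p 0.00997). That fed difference was -1.02 in wash batch 1 and -1.67 in wash batch 2, with adjusted p of 1 and 0.144 there, and its limma adjusted p was 0.05 without CTRL fed replicate 5 and 0.101 in a fit of the fed arrays alone.

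Vnn1 was higher in fasted than fed CTRL livers, lower in fasted than fed AAKO livers, and higher in CTRL livers after CL316243 than fed. Relative to fed livers of the same genotype, Vnn1 rose 5.27-fold in CTRL after the fast (log2 fold change 2.40, SE 0.24, adjusted p 1.24e-09, limma) and fell by 0.98 on the log2 scale in AAKO (limma adjusted p 0.000641). The AAKO difference was -1.28 in wash batch 1 and -0.68 in wash batch 2 (limma adjusted p 0.00867 and 0.0725). After CL316243 Vnn1 was 2.05-fold higher than in fed CTRL livers (limma adjusted p 0.00184). The log2 difference was 1.16 in wash batch 1 and 0.90 in wash batch 2, with limma adjusted p of 0.0627 and 0.0885 there. In AAKO the levels after CL316243 and in fed livers overlapped and the difference was not called. The genotype difference in fasted mice minus that in fed mice was -3.38 (95% interval -4.06 to -2.69, limma adjusted p 8.52e-09), and the one after CL316243 minus that in fed mice was -1.12 (95% interval -1.81 to -0.43, limma adjusted p 0.0274). The second of these was -1.50 in wash batch 1 and -0.74 in wash batch 2, with limma adjusted p of 0.148 and 0.477 there, 0.0605 without the wash batch term, 0.0522 with slide as a random block, and 0.0529 without AAKO fed replicate 3. From the lowest group to the highest, the order of Vnn1 was AAKO fasted, AAKO CL316243, AAKO fed, CTRL fed, CTRL CL316243 and CTRL fasted. Of these neighbours, AAKO CL316243 and AAKO fed did not differ beyond their spread, and every other neighbouring pair was called by limma.

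Vnn3, the other liver vanin measured, had the same signs as Vnn1 in the fasted and CL316243 genotype comparisons with smaller sizes. In fasted livers the Vnn3 level was 2.04 to 2.70 (median 2.41) in CTRL and 0.63 to 0.98 (median 0.80) in AAKO, without overlap, and AAKO was 2.98-fold lower (log2 fold change -1.57, SE 0.15, adjusted p 5.6e-10, limma). After CL316243 it was 1.52 to 1.98 (median 1.83) in CTRL and 0.72 to 1.22 (median 1.06) in AAKO, also apart (log2 fold change -0.84, SE 0.15, adjusted p 0.00011, limma). In fed livers it was 1.29 to 2.09 (median 1.92) in CTRL and 0.66 to 1.81 (median 1.62) in AAKO, the ranges overlapped, and the difference of -0.35 was not called (95% interval -0.66 to -0.035, limma adjusted p 0.694). Vnn3 in fasted livers lay above fed livers by 0.61 on the log2 scale in CTRL and below them by 0.62 in AAKO (limma adjusted p 0.00155 and 0.000686). Those shifts were 0.38 in wash batch 1 and 0.83 in wash batch 2 for CTRL, and -0.88 in wash batch 1 and -0.36 in wash batch 2 for AAKO. The first value for CTRL and the second for AAKO were not called. The genotype difference in fasted mice minus that in fed mice was -1.23 (limma adjusted p 4.4e-05). The CL316243 counterpart of -0.49 was not called (limma adjusted p 0.155, and 0.0386 without AAKO fed replicate 6). CL316243 lowered Vnn3 in AAKO by 0.46 (limma adjusted p 0.0209), a call lost without AAKO CL316243 replicate 6 or without AAKO fed replicate 2, 3 or 4 (limma adjusted p up to 0.0676). It was also lost without the wash batch term (0.0524) and with the 2 AAKO groups alone (0.0739). It was -0.65 in wash batch 1 and -0.23 in wash batch 2 (limma adjusted p 0.00664 and 0.684). From low to high the groups ran AAKO fasted, AAKO CL316243, AAKO fed, CTRL fed, CTRL CL316243 and CTRL fasted, with no call between AAKO fasted and AAKO CL316243, between the fed genotypes, or between CTRL fed and CTRL CL316243.

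**Figure D1:**
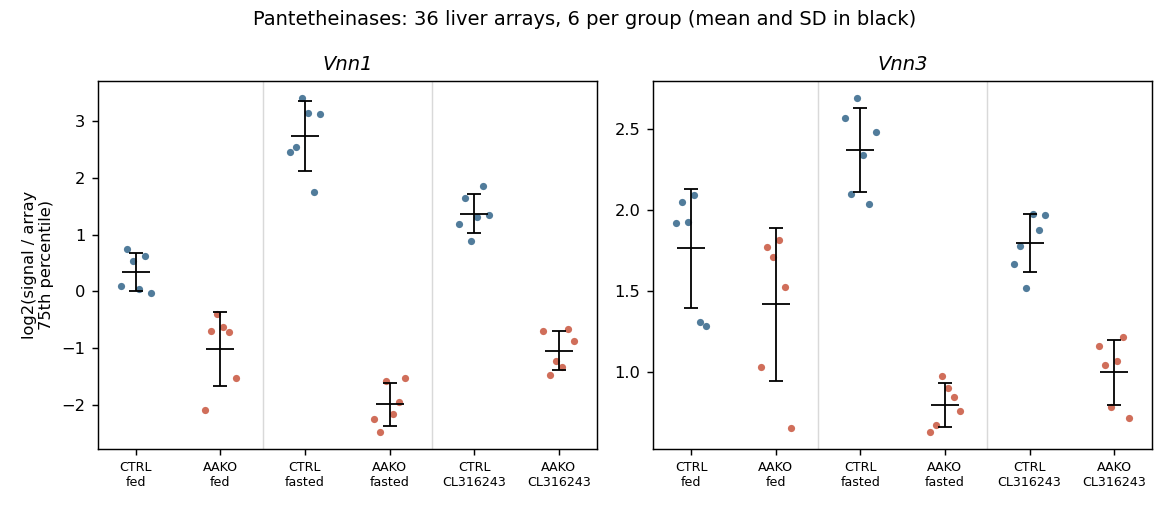
Level of Vnn1 (left) and Vnn3 (right) in each of 36 livers, as log2 of signal over the array's 75th percentile, by group; points are arrays, black bars the mean and SD of 6 arrays, blue CTRL and red AAKO. The Vnn1 means were 2.73 in CTRL fasted and -1.99 in AAKO fasted livers, the highest and lowest of the 6 groups, and Vnn3 showed the same highest and lowest group.

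Pank1, a pantothenate kinase and so an enzyme of the controlling step, rose in CTRL livers after the fast and after CL316243, and fell with the fast in AAKO livers. Its level in CTRL was 2.17 to 2.46 (median 2.39) fed, 2.70 to 3.07 (median 3.04) fasted and 3.29 to 3.47 (median 3.36) after CL316243, and these 3 ranges did not overlap. In AAKO it was 2.22 to 2.44 (median 2.30) fed, 1.68 to 2.24 (median 1.92) fasted and 2.07 to 2.62 (median 2.49) after CL316243. In CTRL livers Pank1 rose 2.01-fold after CL316243 (log2 fold change 1.01, SE 0.086, adjusted p 1.62e-09, limma) and by 0.59 on the log2 scale after the fast (limma adjusted p 1.38e-06). Pank1 was higher in CTRL livers after CL316243 than after the fast (fasted minus CL316243 -0.42, limma adjusted p 0.000225). In AAKO livers it fell by 0.35 after the fast (limma adjusted p 0.000604), and neither this call nor that between fasted and CL316243 CTRL livers was made in wash batch 1 (limma adjusted p 0.0931 and 0.073). The AAKO CL316243 difference of 0.14 was not called (95% interval -0.035 to 0.32). Between genotypes, Pank1 was 1.998-fold lower in AAKO when fasted (SE of the log2 value 0.086, limma adjusted p 5.53e-11) and 1.89-fold lower after CL316243 (log2 fold change -0.92, SE 0.087, adjusted p 3.39e-09, limma), while the fed ranges overlapped with no call. The genotype difference changed from fed by -0.94 with the fast and by -0.87 with CL316243 (limma adjusted p 5.15e-07 and 1.45e-05). Within wash batches the genotype difference after CL316243 was -0.92 in wash batch 1 and -0.93 in wash batch 2. Pank1 ran from AAKO fasted through AAKO fed, CTRL fed, AAKO CL316243 and CTRL fasted up to CTRL CL316243. The fed genotypes were not called different and AAKO CL316243 was not called different from AAKO fed; AAKO CL316243 against CTRL fed was not compared.

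Pank2 and Pank3, the other active pantothenate kinases measured, moved with condition, and neither was called between genotypes in any condition. The Pank2 level was -1.19 to -0.63 (median -1.12) in CTRL fed and -0.41 to -0.029 (median -0.24) in CTRL fasted livers, and -1.21 to -0.78 (median -0.93) and -0.48 to -0.14 (median -0.41) in the AAKO counterparts, so fasted livers lay above fed livers in both genotypes. It rose by 0.78 in CTRL and by 0.60 in AAKO after the fast (limma adjusted p 6.31e-08 and 1.93e-06). After CL316243 Pank2 was higher than in fed livers by 0.28 in CTRL and 0.29 in AAKO (limma adjusted p 0.0313 and 0.0221), with overlapping ranges. The CTRL shift after CL316243 was 0.47 in wash batch 1 and 0.094 in wash batch 2, and leaving out 1 array at a time gave 0.22 to 0.36 with limma adjusted p up to 0.105. The call was lost without CTRL CL316243 replicate 1, 2 or 5 or CTRL fed replicate 1, 2, 3 or 4. In AAKO it was 0.22 in wash batch 1 and 0.37 in wash batch 2 (limma adjusted p 0.205 and 0.199), and leaving out fed replicate 1 or CL316243 replicate 1 or 3 ended the call (limma adjusted p up to 0.0697). A second Pank2 probe, which has no mapped position in the scanner files, differed from the first: its fasting shift was 0.16 in CTRL and -0.062 in AAKO (limma adjusted p over all probes 0.0717 and 0.467), and it was lower in AAKO than in CTRL when fasted by 0.26 (limma adjusted p 0.00344). After CL316243 it gave 0.093 in CTRL and 0.10 in AAKO (limma adjusted p 0.387 and 0.295). The Pank2 rises with the fast and with CL316243 therefore rest on 1 of its 2 probes. By the probe used for the gene, Pank2 was lowest in the fed groups, higher after CL316243 and highest in fasted livers. The second probe did not share this order: its mean was lowest in AAKO fasted livers (-1.33) and highest in CTRL fasted livers (-1.08).

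For Pank3 the direction of the fasting shift was the reverse of Pank2. The Pank3 level was 3.66 to 4.02 (median 3.97) in CTRL fed and 3.31 to 3.69 (median 3.51) in CTRL fasted livers, with 1 range reaching slightly into the other. In AAKO it was 3.87 to 4.03 (median 3.93) fed, 3.37 to 3.68 (median 3.58) fasted and 3.43 to 3.75 (median 3.68) after CL316243, with the fed range above both others. It fell by 0.42 in CTRL and by 0.37 in AAKO with the fast, and by 0.29 in AAKO with CL316243 (limma adjusted p 1.69e-05, 5.15e-05 and 0.00276). The AAKO CL316243 shift was -0.34 in wash batch 1 and -0.22 in wash batch 2 (limma adjusted p 0.0452 and 0.232), and the one in CTRL was not called (limma adjusted p 0.0983).

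Ppcs, which joins phosphopantothenate to cysteine, was lower in AAKO livers both fasted and after CL316243. In fasted livers its level was 1.91 to 2.48 (median 2.26) in CTRL and 1.08 to 1.49 (median 1.40) in AAKO, apart, and AAKO was 1.85-fold lower (log2 fold change -0.89, SE 0.087, adjusted p 6.68e-10, limma). After CL316243 it was 2.35 to 2.53 (median 2.40) in CTRL and 1.79 to 2.11 (median 1.93) in AAKO, also apart (log2 fold change -0.48, SE 0.087, adjusted p 0.000101, limma). Fed livers held 2.12 to 2.45 (median 2.21) in CTRL and 1.85 to 2.34 (median 1.98) in AAKO, with a difference of -0.20 that was not called (95% interval -0.37 to -0.021, limma adjusted p 0.691). Unlike Vnn1 and Pank1, Ppcs was not called between fasted and fed CTRL livers, whereas in AAKO it fell by 0.70 with the fast (limma adjusted p 2.34e-08). The genotype difference in fasted mice minus that in fed mice was -0.69 (95% interval -0.94 to -0.44, limma adjusted p 5.2e-05). AAKO fasted was the lowest group, below AAKO CL316243 by a called difference, and none of the 3 CTRL groups was called different from another.

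Ppcdc, the decarboxylase of the pathway, and Coasy, which completes coenzyme A, showed smaller differences of the same sign in fasted livers. Ppcdc was 2.03 to 2.34 (median 2.25) in CTRL fasted and 1.52 to 1.86 (median 1.72) in AAKO fasted livers, which did not overlap (log2 fold change -0.49, SE 0.096, adjusted p 7.78e-05, limma). After CL316243 its ranges of 1.90 to 2.36 (median 2.04) in CTRL and 1.47 to 2.20 (median 1.88) in AAKO overlapped, and the difference of -0.23 was not called (limma adjusted p 0.079). It was called under quantile normalization and in the authors' value table (limma adjusted p 0.0359 and 0.0267), and without AAKO CL316243 replicate 3 (-0.32, limma adjusted p 0.00945). In fed livers Ppcdc was 1.92 to 2.47 (median 2.17) in CTRL and 1.93 to 2.30 (median 2.11) in AAKO. It fell by 0.39 in AAKO with the fast (limma adjusted p 0.000631) and was not called between any of the CTRL groups. CL316243 lowered it in AAKO by 0.27 (limma adjusted p 0.0324), a call lost without AAKO CL316243 replicate 4 or 6 or AAKO fed replicate 2, 4 or 5 (limma adjusted p up to 0.114). It was also lost without the filter on dim probes (0.0553) and with the 2 AAKO groups alone (0.131). It was -0.39 in wash batch 1 and -0.078 in wash batch 2 (limma adjusted p 0.067 and 0.804). Coasy was 5.70 to 6.03 (median 5.87) in CTRL fasted and 5.36 to 5.66 (median 5.38) in AAKO fasted livers, apart (log2 fold change -0.44, SE 0.061, adjusted p 3.93e-07, limma), and 6.08 to 6.23 (median 6.16) and 5.72 to 6.05 (median 5.96) after CL316243, also apart (log2 fold change -0.24, SE 0.061, adjusted p 0.00348, limma). With the fast, Coasy fell by 0.60 in AAKO and by 0.24 in CTRL (limma adjusted p 3.29e-10 and 0.0019). The CTRL difference was -0.11 under quantile normalization and -0.13 in the authors' value table, where limma adjusted p was 0.2 and 0.106, and it was not called in wash batch 1 (0.139). The second Coasy probe gave a genotype difference of -0.48 in fasted livers (limma adjusted p over all probes 0.000535) and of -0.27 after CL316243, which was not called (0.0691). The CL316243 genotype difference of the first probe was -0.27 in wash batch 1 and -0.18 in wash batch 2 (limma adjusted p 0.0804 and 0.311).

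**Figure D2:**
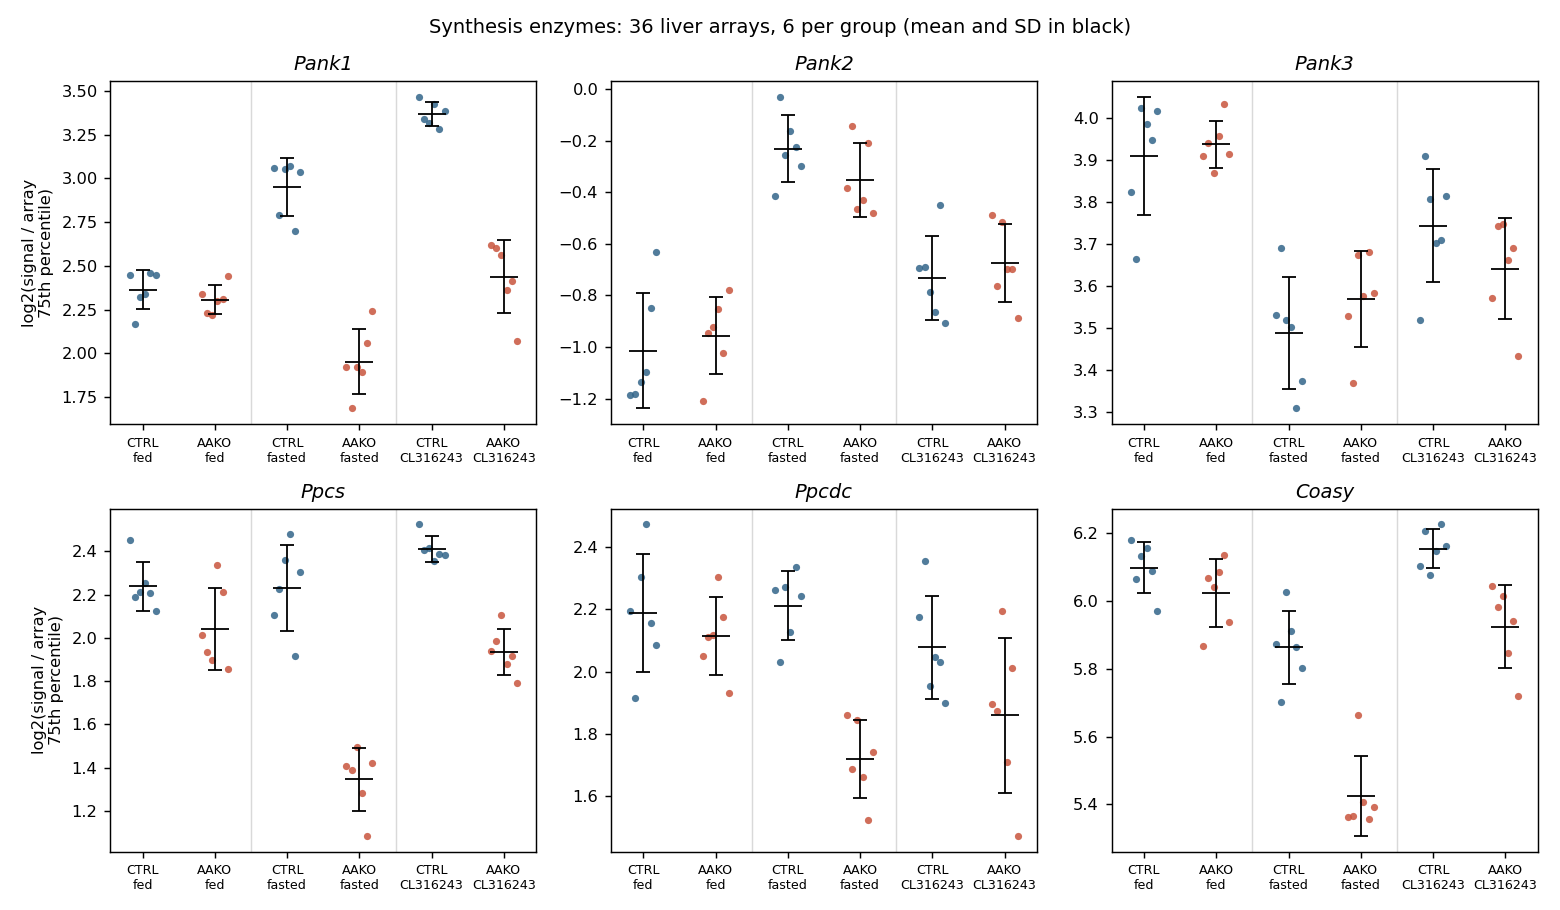
Level of the 6 synthesis enzymes in each of 36 livers, as log2 of signal over the array's 75th percentile, by group, with a separate vertical scale for each gene; points are arrays, black bars the mean and SD of 6 arrays, blue CTRL and red AAKO. Pank1, Ppcs, Ppcdc and Coasy had their lowest mean in AAKO fasted livers (Pank1 1.95, Ppcs 1.35), while Pank2 and Pank3 were close between the genotypes in each condition.

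Nudt7, the peroxisomal hydrolase that degrades coenzyme A and its acyl forms, differed between genotypes in the other direction. In fasted livers its level was 5.56 to 6.26 (median 5.93) in CTRL and 6.87 to 8.13 (median 7.62) in AAKO, so every AAKO liver lay above every CTRL liver, 3.3-fold on average (log2 fold change 1.72, SE 0.14, adjusted p 1.06e-11, limma). After CL316243 it was 7.43 to 8.05 (median 7.86) in CTRL and 8.28 to 8.55 (median 8.47) in AAKO, apart as well (log2 fold change 0.63, SE 0.14, adjusted p 0.000835, limma). Fed livers held 7.55 to 7.87 (median 7.74) in CTRL and 7.83 to 8.01 (median 7.97) in AAKO, and the difference of 0.21 was not called (95% interval -0.073 to 0.49, limma adjusted p 0.814). Nudt7 was 3.6-fold lower in fasted than fed CTRL livers (log2 fold change -1.85, SE 0.14, adjusted p 2.59e-12, limma). After CL316243 the CTRL difference from fed was 0.073 (95% interval -0.21 to 0.35, limma adjusted p 0.761), and fasted CTRL livers lay 1.92 below CL316243 CTRL livers (limma adjusted p 3.79e-12). In AAKO the difference from fed was -0.33 with the fast (limma adjusted p 0.0372) and 0.50 after CL316243 (limma adjusted p 0.00549). The CL316243 shift was 0.47 in wash batch 1 and 0.51 in wash batch 2 (limma adjusted p 0.147 and 0.0856). The genotype difference after CL316243 was 0.65 in wash batch 1 and 0.60 in wash batch 2 (limma adjusted p 0.0618 and 0.0603). The genotype difference in fasted mice minus that in fed mice was 1.52 (95% interval 1.12 to 1.91, limma adjusted p 4.35e-07), and the one after CL316243 minus that in fed mice was 0.43, which was not called (limma adjusted p 0.174, and 0.0227 in a fit of those groups alone).

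The 3 Nudt7 probes all placed AAKO above CTRL when fasted, by 1.72, 1.70 and 0.95, and all fell with the fast in CTRL, by 1.85, 2.01 and 2.52 on the log2 scale (limma adjusted p over all probes at most 7.78e-05). They differed in size in AAKO livers, where probe 3, designed to an Ensembl transcript, had a fasting shift of -1.72 and probes 1 and 2 -0.33 and -0.53. All 3 of these shifts were called (limma adjusted p over all probes 1.31e-09, 0.0369 and 0.0133). For the interaction with genotype, probe 3 gave 0.80 for fasted against fed and 0.30 for fasted against CL316243, the latter not called (limma adjusted p over all probes 0.018 and 0.41). Probe 1, which stands for the gene, lost the AAKO fasting call with normexp background, quantile normalization, the authors' value table and no filter on dim probes, with the 2 AAKO groups alone and within each wash batch (limma adjusted p 0.0505 to 0.486). It also lost the call without AAKO fasted replicate 1, 2 or 3 or AAKO fed replicate 3, 4, 5 or 6, with -0.18 and a limma adjusted p of 0.188 without AAKO fasted replicate 2. Nudt7 was lowest in CTRL fasted livers and highest in AAKO CL316243 livers, and AAKO fasted and CTRL fed livers, which no comparison joins, had neighbouring means of 7.62 and 7.74.

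Nudt19, another peroxisomal coenzyme A hydrolase, had genotype differences of opposite sign in fasted and CL316243 mice. Its level was 4.30 to 4.63 (median 4.47) in CTRL fasted and 4.62 to 4.83 (median 4.69) in AAKO fasted livers, 4.12 to 4.36 (median 4.26) in CTRL and 3.72 to 4.22 (median 3.98) in AAKO after CL316243, and 4.27 to 4.60 (median 4.58) and 4.13 to 4.79 (median 4.56) in the fed groups, with overlap in each pair. AAKO was higher when fasted by 0.25 and lower after CL316243 by 0.29 (limma adjusted p 0.0132 and 0.0107), a change between conditions of 0.53 (95% interval 0.29 to 0.77, limma adjusted p 0.000678). All 3 Nudt19 probes were called higher in AAKO when fasted, the other ones by 0.38 and 0.38, but after CL316243 the other probes gave -0.16 and -0.12 (limma adjusted p over all probes 0.247 and 0.306), so the CL316243 genotype call rests on 1 of 3 probes. With the mean of all its probes it was -0.19 (limma adjusted p 0.0899), and within wash batches -0.34 in wash batch 1 and -0.17 in wash batch 2, neither called; the fasted difference was 0.25 in each batch and also not called there. After CL316243 Nudt19 was lower than in fed livers by 0.25 in CTRL and by 0.52 in AAKO (limma adjusted p 0.028 and 1.22e-05), and here all 3 probes were called. The CTRL call was lost without CTRL CL316243 replicate 1 or 2 or CTRL fed replicate 1, 3 or 4 (limma adjusted p up to 0.0746). Nudt19 was 0.22 higher in fasted than fed AAKO livers (limma adjusted p 0.023), a call lost without AAKO fed replicate 1 or 6 (limma adjusted p 0.0608 and 0.0967). That shift was 0.08 in wash batch 1 and 0.35 in wash batch 2 (limma adjusted p 0.609 and 0.0152). The other Nudt19 probes gave larger AAKO fasting shifts of 0.55 and 0.52 (limma adjusted p over all probes 8.12e-06 and 1.57e-06). The CL316243 shift was -0.30 in wash batch 1 and -0.20 in wash batch 2 (limma adjusted p 0.14 and 0.317) for CTRL, and -0.71 in wash batch 1 and -0.27 in wash batch 2 (limma adjusted p 0.000496 and 0.2) for AAKO. The lowest group was AAKO CL316243 and the highest AAKO fasted.

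**Figure D3:**
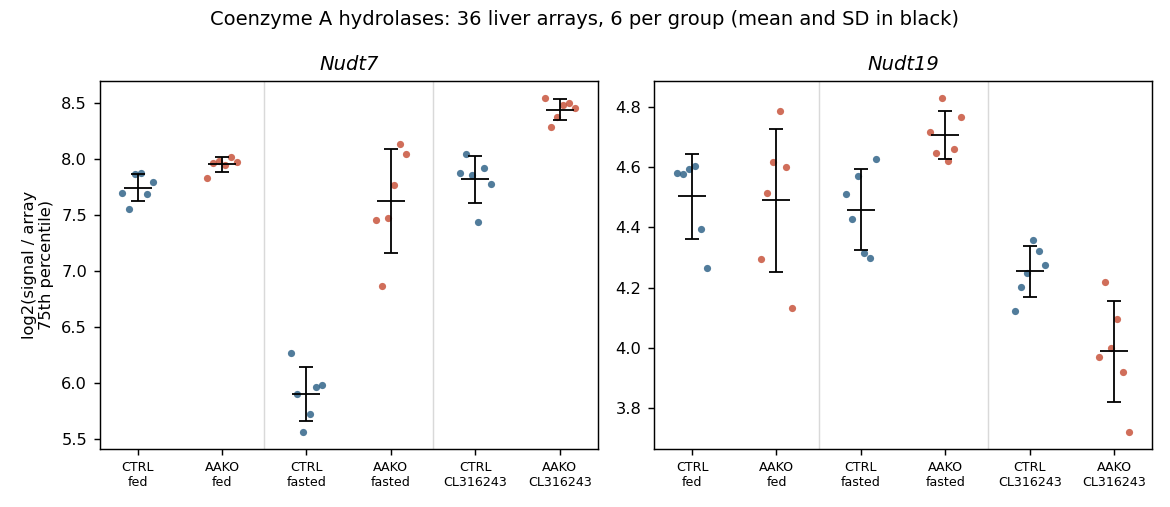
Level of Nudt7 (left) and Nudt19 (right) in each of 36 livers, as log2 of signal over the array's 75th percentile, by group; points are arrays, black bars the mean and SD of 6 arrays, blue CTRL and red AAKO. Nudt7 averaged 5.90 in CTRL fasted livers and 7.62 in AAKO fasted livers, and Nudt19 was lowest, at 3.99, in AAKO CL316243 livers.

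**Figure D4:**
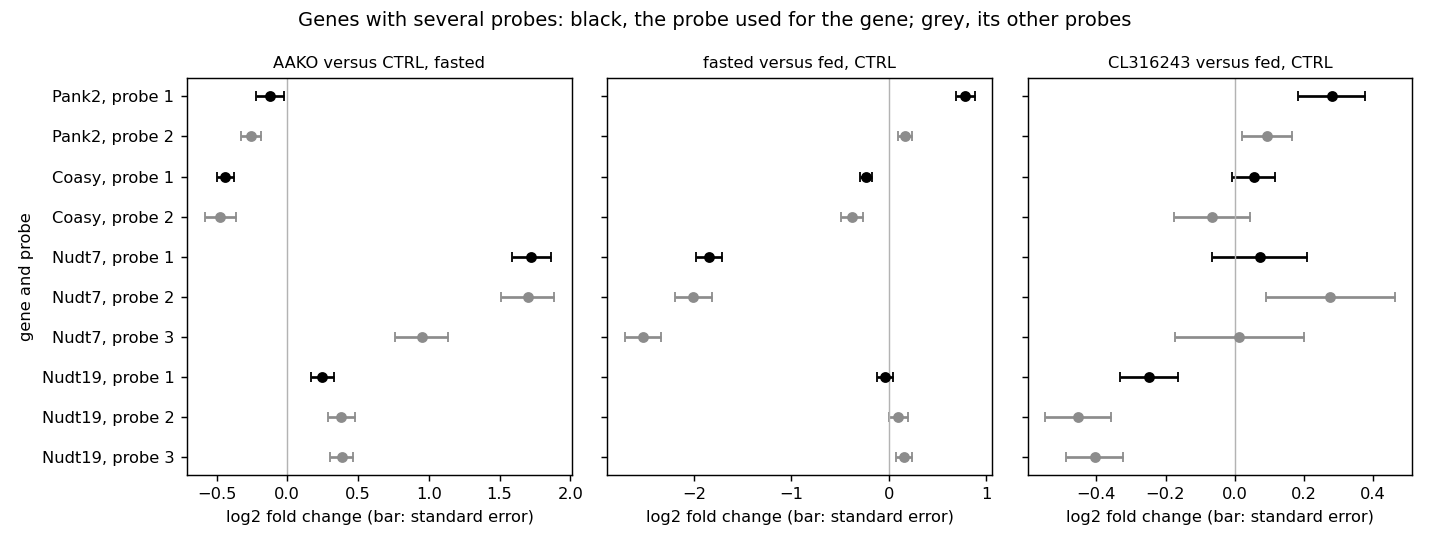
log2 fold change with its standard error for each probe of the 4 genes that have several, in 3 comparisons, from the limma fit over all probes; black marks the probe used for the gene and grey its others. The Nudt7, Nudt19 and Coasy probes had the same sign for AAKO versus CTRL in fasted livers, and the Pank2 probes differed in the size of the fasting shift in CTRL (0.78 and 0.16).

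Counts over the 10 genes are set here beside the share of all 24250 tested genes that limma called at an adjusted p below 0.05. Between genotypes, fed livers had 1 of the 10 called, Vnn1, lower in AAKO, where 0.0784% of all genes were called. Fasted livers had 2 called higher (Nudt7 and Nudt19) and 6 called lower in AAKO, against 49.3% of all genes. CL316243 livers had 1 higher (Nudt7) and 6 lower, against 24.8%. The median log2 fold change of the 10 genes was -0.47 in fasted livers and -0.26 after CL316243, where the medians of all tested genes were -0.041 and 0.033. Pank1, Ppcs, Coasy, Vnn1 and Vnn3 were called lower in both.

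Between conditions, CTRL livers had 4 of the 10 genes called higher and 3 lower in fasted than fed mice (43.3% of all genes called), 3 higher and 1 lower after CL316243 than fed (23.3%), and 3 higher and 4 lower in fasted than CL316243 mice (36.8%). In AAKO livers, all 10 were called in fasted versus fed mice, 2 higher (Pank2, by 1 of its 2 probes, and Nudt19) and 8 lower (63.5% of all genes called). That count was 9 with normexp background, quantile normalization, the authors' value table, no filter on dim probes and the 2 AAKO groups alone. It was 7 within each wash batch and 8 to 10 with 1 array left out. For CL316243 against fed AAKO livers 2 were higher and 4 lower (31.4%), and for fasted against CL316243 AAKO livers 2 were higher and 5 lower (59.9%). Pank2 is among the genes called higher in each of these comparisons between conditions, by 1 of its 2 probes. For fasted against CL316243 AAKO livers its second probe gave -0.17 (limma adjusted p over all probes 0.0469). The mean of its probes gave 0.075 there (limma adjusted p 0.349). The genotype difference itself changed, by the interaction term, for 7 genes between fed and fasted mice (33.9% of all genes), for 2, Vnn1 and Pank1, between fed and CL316243 mice (10.9%), and for 5 between CL316243 and fasted mice (32.3%). Between fed and fasted mice the count was 8 with normexp background, quantile normalization, the authors' value table and the mean of all probes. Nudt19 was not called there by the probe used for it (0.26, limma adjusted p 0.0856). Its other probes gave 0.45 and 0.37 (limma adjusted p over all probes 0.00957 and 0.0128). The comparisons counted here share groups, so their counts are not independent of each other.

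The count for CL316243 against fed CTRL livers was 4, and it was 2 without CTRL fed replicate 1, 3 or 4 or without CTRL CL316243 replicate 1, and 2 and 1 within the wash batches, where Vnn1 and Nudt19 were called in neither batch, Pank2 in wash batch 1 and Pank1 in both. Within a wash batch the genotype count after CL316243 was 4 of 10 in wash batch 1 (Vnn1, Vnn3, Pank1 and Ppcs) and 2 of 10 in wash batch 2 (Vnn1 and Pank1), with 2 to 4 arrays per group.

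**Figure D5:**
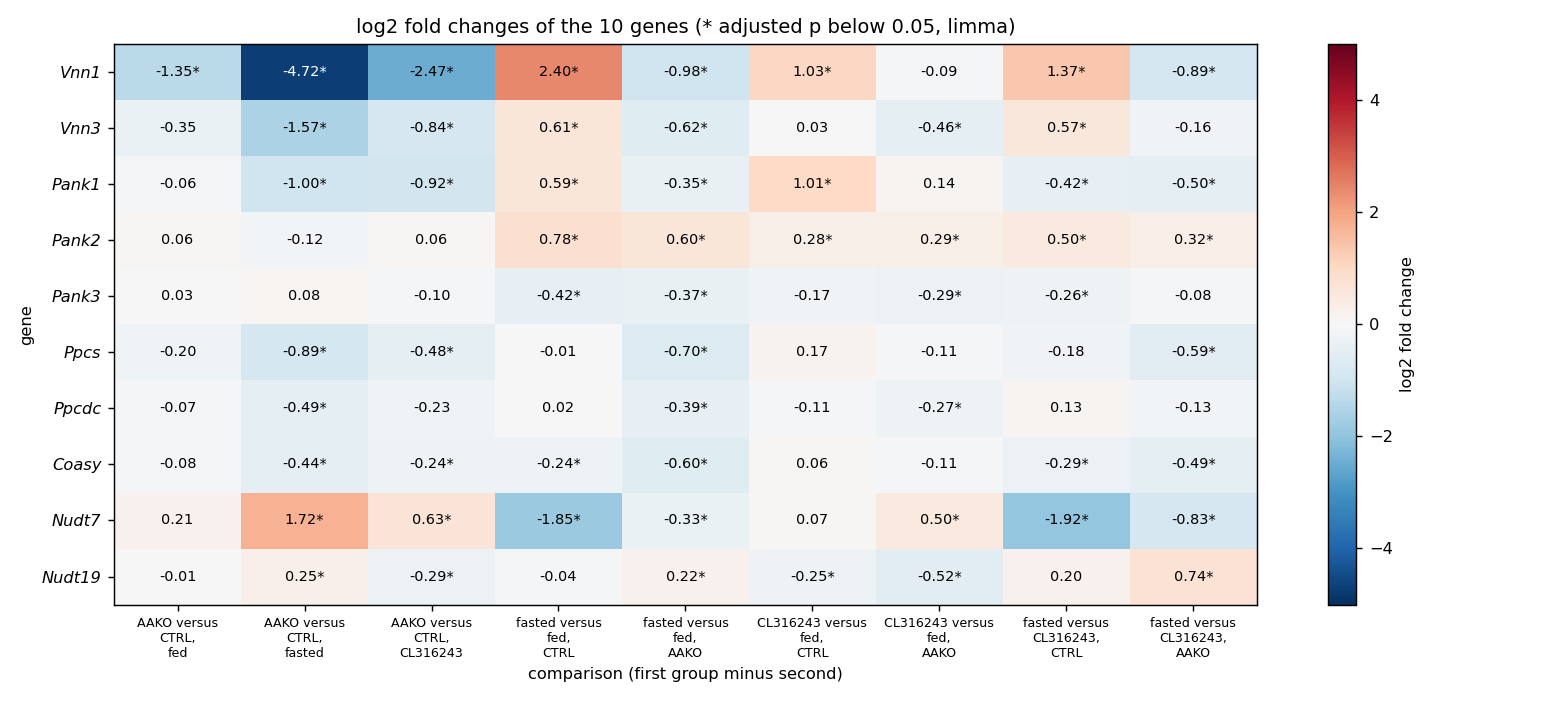
log2 fold change of each of the 10 genes (rows) in the 9 comparisons between groups (columns, first group minus second), with colour from blue (lower) to red (higher) and a star where the limma adjusted p was below 0.05. The Vnn1 value of -4.72 for AAKO versus CTRL in fasted livers is the largest in size, and Nudt7 is the largest positive value among the genotype comparisons, at 1.72.

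Another 10 genes of coenzyme A handling were listed beside these from general knowledge, and all were tested: the vitamin transporter Slc5a6, the pantothenate kinase relative Pank4, Dcakd, the carriers Slc25a42, Slc25a16 and Slc25a17, the mitochondrial hydrolase Nudt8, Aasdhppt, which transfers phosphopantetheine to proteins, the cysteamine dioxygenase Ado, and the vanin relative Btd. In fasted livers 3 of the 10 were called higher and 4 lower in AAKO, with a median of -0.079. Of all tested genes 49.3% were called there, with a median of -0.041. Slc5a6, which imports pantothenate and biotin, was 0.40 to 1.87 (median 0.86) in CTRL fasted and 1.64 to 2.32 (mean 1.99) in AAKO fasted livers, higher in AAKO by 1.02 (SE 0.19, limma adjusted p 3.23e-05) with overlapping ranges. The overlap comes from CTRL fasted replicate 2, at 1.87, since the other 5 CTRL fasted livers were at most 0.99. Without that array, an alternative chosen after seeing the data, the difference was 1.21 (limma adjusted p 2.22e-07). The other genes of this list called in fasted livers kept their call without it, with changes of at most 0.063. Slc25a42, the mitochondrial coenzyme A carrier, was higher by 0.76 and Pank4 by 0.32 (limma adjusted p 6.79e-09 and 7.86e-05). Dcakd was lower by 0.71, Nudt8 by 0.24, Slc25a16 by 0.23 and Btd by 0.19. After CL316243 none was called higher and 3 were called lower in AAKO, where 24.8% of all genes were called. They were Slc5a6 by 0.57, Slc25a42 by 0.33 and Dcakd by 0.28 (limma adjusted p 0.0244, 0.004 and 0.025). The Slc5a6 ranges overlapped there, 1.65 to 2.08 in CTRL and 0.83 to 1.76 in AAKO. AAKO replicates 1, 2 and 3 (1.76, 1.74 and 1.68) lay within the CTRL range, and replicates 4, 5 and 6 (0.88, 1.03 and 0.83) below it. Slc5a6 and Slc25a42 thus had opposite genotype signs in fasted and CL316243 mice, for Slc5a6 with only part of the AAKO CL316243 livers below CTRL. The interaction of genotype with fasted against CL316243 was 1.59 for Slc5a6 and 1.08 for Slc25a42 (limma adjusted p 2.42e-05 and 4.65e-08). In fed livers none of the 10 passed at an adjusted p below 0.05, where 2 had an unadjusted limma p below 0.05.

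Promoter sequence from RefSeq (GRCm38.p6), 250 bases before to 50 after a gene's start, was matched by symbol for 8 of the 10 genes, in 12 windows; Vnn1 and Coasy were not searched. Both strands were searched for 2 copies of AGGTCA spaced by 1 base (AGGTCANAGGTCA), the sequence that nuclear receptors of the PPAR and RXR type are known to bind, with at most 2 mismatches over 12 letters. It was in 1 of the 12 windows, that of Ppcdc, and in 3.9% of all 32851 windows. A single exact AGGTCA on either strand, a search added after the first, was in 1 of the 12 stretches of 250 bases before the start, that of Ppcs, and in 14.0% of all such stretches. Both matches are shown in windows of 30 bases, with the matched stretch in capitals.
Ppcdc, chr9:57439688-57439717, - strand: gcgtgttgAGGTCATAGGACGacctgcagg
Ppcs, chr4:119422627-119422656, - strand: ggtggccggtatAGGTCAaaaacaaccatt
The Ppcdc match begins 28 bases after the start and matches 10 of 12 letters, and the Ppcs match lies before the start. The search covers these windows only.

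The genes whose level followed 9 of the 10 genes most closely over the 36 arrays were listed by Pearson correlation across 24250 tested genes, as a description, since arrays share groups, wash batches and scaling. The value within groups is the correlation after each group's mean was removed, and it was lower for every gene listed. For Vnn1 they were Acadm (r = 0.97, within groups 0.70), Hadhb (0.95, within groups 0.66) and Ech1 (0.95, within groups 0.64). For Vnn3 they were Hsd17b11 (r = 0.92, within groups 0.64), Acaa1b (0.92, within groups 0.54) and 4930525G20Rik (0.91, within groups 0.57). For Pank1 they were Crot (r = 0.91, within groups 0.49), Plin2 (0.91, within groups 0.38) and Amacr (0.91, within groups 0.34). Coasy was followed by Xylb (r = 0.96, within groups 0.70), Hebp1 (0.96, within groups 0.73) and A130010J15Rik (0.96, within groups 0.80). Nudt7 was followed by Olfr806 (r = 0.92, within groups 0.60), Mvk (0.91, within groups 0.46) and Cyp51 (0.91, within groups 0.65). Nudt19 was followed by Ppp4r4 (r = 0.90, within groups 0.73), Pde3b (0.87, within groups 0.53) and Rce1 (0.86, within groups 0.36). Pank2 was closest to Chmp2b (r = 0.89, within groups 0.53), Taf1b (0.89, within groups 0.56) and Gm5532 (0.88, within groups 0.54). Pank3 was closest to Cpsf6 (r = 0.87, within groups 0.58), Tmem126a (0.86, within groups 0.62) and Gm4956 (0.86, within groups 0.53), and Ppcdc to Zfp354a (r = 0.84, within groups 0.60), Mnd1 (0.84, within groups 0.62) and Gm33509 (0.84, within groups 0.61). Among the 10 genes, Vnn1 and Vnn3 correlated at 0.89 over all arrays and at 0.57 after each group's mean was removed, and Ppcs and Coasy at 0.86 and 0.47. Vnn1 and Pank1 correlated at 0.78 over all arrays and at 0.12 within groups, and Vnn3 and Nudt19 at 0.20 over all arrays and 0.78 within groups.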

How the data were processed

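Spot intensity values were deposited per array, made with Agilent Feature Extraction 10.10.1.1 per the submitters' processing notes and the file headers; the processed signal intensity is background-subtracted within the array, with no scaling between arrays recorded. Well-above-background, saturation and outlier marks were deposited beside it. The authors also deposited log2 values of 36898 probes; their normalization is not given in the sources used here. Each of the table's 36 columns correlated best with the log2 median signal of its own array (r 0.99957 to 0.99981), so scale and direction are known and centring is not: the columns of a group held identical sorted values, with medians of 6.91 (CTRL fed), 6.93 (AAKO fed), 6.97 (CTRL fasted), 7.01 (AAKO fasted), 6.91 (CTRL CL316243) and 6.88 (AAKO CL316243). It served as an alternative.

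Here log2 of the processed signal minus log2 of each array's 75th percentile was used, without control spots and outlier spots (0.127% of spots; none saturated). Of several probes for a gene, the one brightest on average stood for it, and 24250 genes were tested that were well above background on at least 5 of 6 arrays in at least 1 group. Symbols were updated through RefSeq accessions (GRCm38.p6, 32994 probes matched); no symbol of the 10 genes changed. limma 3.58.1 in R 4.3.3 fitted 6 group means with the wash batch as an additive term, and p-values were Benjamini-Hochberg adjusted over all tested genes, with calls below 0.05. AAKO CL316243 has 4 arrays in wash batch 1 and 2 in wash batch 2, the other groups 3 and 3, so its fitted differences do not equal differences of means. The fit was tested on simulated data. The genes, lists and comparisons were chosen with earlier results of these data known. Named were the 10 genes, listed genes of coenzyme A handling called in fasted or CL316243 genotype comparisons, and the 3 genes most correlated with each of the 10, which for Ppcs are not reported here. The number of arrays limits the precision.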

Additional observations from a re-analysis of the deposited data

Results flagged for a closer look

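In 60 sets of 6 livers, 10 genes in 6 groups, 2 had an array far from the rest, where chance alone marks about 1 group in 20. Coasy was 5.66 in AAKO fasted replicate 3 and 5.36 to 5.41 in the other AAKO fasted livers, and Ppcs was 2.53 in CTRL CL316243 replicate 1 and 2.35 to 2.41 in the others. The genotype difference changed between conditions, by the limma interaction term, in 14 cases. Against fed mice the change with fasting was -3.38 for Vnn1, -1.23 for Vnn3, -0.94 for Pank1, -0.69 for Ppcs, -0.42 for Ppcdc, -0.36 for Coasy and 1.52 for Nudt7. With CL316243 it was -1.12 for Vnn1 and -0.87 for Pank1. Fasted against CL316243 it was -2.25 for Vnn1, -0.73 for Vnn3, -0.41 for Ppcs, 1.09 for Nudt7 and 0.53 for Nudt19. Vnn1 was called in all 3 tests, and Pank1 in both tests against fed mice. Within the wash batches, Ppcdc (limma adjusted p 0.117 and 0.239) and Coasy (0.0683 and 0.1) were not called for fasting against fed, which left 5 of 7 in each batch. For fasted against CL316243, Ppcs (0.258 and 0.0625) was called in neither, and Vnn3 (0.213) and Nudt19 (0.112) were not called in wash batch 2.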

How the results depend on the processing

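For 79 reported differences of single genes, 870 of 948 values under 12 alternatives, and 1103 of 1140 values with 1 array left out, kept their direction and their side of the threshold, and none reversed. The replicate numbers did not pair the mice (90 same-number pairs, correlation of deviations -0.30 to 0.36, median 0.0036), and with the replicate number as a block every count of called genes was as reported, 8 of 10 in fasted and 7 of 10 in CL316243 livers between genotypes. Most lost calls came within a single wash batch, with 2 to 4 arrays per group (21 and 29 of 79). There the number of called genes fell from 1 to 0 and 0 for the fed genotypes, from 7 to 4 and 2 for the CL316243 genotypes, from 4 to 2 and 1 for CL316243 against fed CTRL, from 6 to 3 and 0 for CL316243 against fed AAKO, and from 2 to 1 and 1 for the CL316243 interaction against fed, and from 5 to 2 in wash batch 2 for the interaction of fasted against CL316243. For fasted against fed AAKO the count was 7 within each wash batch instead of 10. The fed genotype count was 0 with only the fed arrays, where 3 of all genes were called against 19. CL316243 against fed CTRL gave 2 without the filter on dim probes and with slide as a fixed factor. The CL316243 interaction gave 1 without the wash batch term and with slide as a random block. Leaving out 1 array gave 0 to 1 for the fed genotypes, 2 to 4 for CL316243 against fed CTRL and 1 to 3 for the CL316243 interaction. The causes of these changes beyond the smaller number of arrays were not tested.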
